A study of Mus musculus with 16 samples.

Results

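The genes described here are the interferon-induced genes and the interferon regulatory factors (IRFs) of mouse white fat. They were chosen by name: guanylate-binding proteins (Gbp), immunity-related GTPases (Igtp, Iigp, Irgm), Ifit, Ifi, Irf, Isg, Oas, Mx1, Mx2, Rsad2, Zbp1, Stat2, Psmb8, Psmb9, Tap1, Tap2 and 1 further gene, with at least 1 FPKM (fragments per kilobase of transcript and per a fixed number of mapped fragments) in at least 2 libraries. The table of 14023 genes held 63 such names, and 62 reached the minimum. Gbp10 was just inside, with 1 FPKM or more only in the 2 WT vehicle libraries of eWAT, and Ifi44 reached it only in WT vehicle libraries. For these genes a difference against WT vehicle was favoured by the minimum itself and is a description. A match by name also took 4 genes that are not known as interferon-induced: the IRF2-binding co-repressors Irf2bp1, Irf2bp2 and Irf2bpl, and Isg20l2, a relative of Isg20.

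RNA was measured in epididymal (eWAT) and inguinal (iWAT) white fat of mice that were wild-type (WT) for PPARg or homozygous for PPARg-K107R, a lysine-to-arginine change in the nuclear receptor that drives fat cell genes. Per the labels' protocols, all mice were fed chow for 10 weeks, followed by 19 weeks of diet in which fat supplied 60% of the calories. They received by gavage, over 1 week, either the PPARg agonist rosiglitazone (10 mg/kg) or 1% methylcellulose as vehicle. Depot, genotype and treatment make 8 groups: WT vehicle, K107R vehicle, WT rosiglitazone and K107R rosiglitazone, each in eWAT and in iWAT. Each group had 2 libraries, numbered 1 and 2, so 16 libraries entered the analysis. The labels give no strain and do not say whether a group holds separate mice, or whether both depots were taken from 1 mouse. A p-value here thus reflects variation among libraries that could be technical.

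Interferons are secreted proteins that act through receptors and JAK kinases on transcription factors of the STAT family. Type I interferon signals mainly through a complex that contains STAT2 and IRF9 and binds the interferon-stimulated response element (ISRE), and interferon gamma mainly through the gamma-activated site (GAS). The proteins induced include GTPases that attack the vacuoles of microbes (GBPs and immunity-related GTPases), proteins that sense or block foreign RNA (IFIT, OAS, Mx) and the immunoproteasome and peptide transporter that load MHC class I. In fat, such genes are expressed in fat cells as well as in resident macrophages and lymphocytes.

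Promoter sequences of these families are shown first, because interferons are known to act on such genes through the ISRE and GAS. RefSeq promoters on GRCm38.p6 were matched for 45 of the 62 members, and the 250 bases before each start were searched on both strands. The ISRE core was searched as GAAANNGAAA and the GAS as TTCNNNGAA. No ISRE core match overlapped a GAS match. The ISRE core stood in 22 of 45 members (48.9%), against 3.29% of the 10491 table genes with a promoter and 3.46% of all 27025 genes with one. GAS stood in 13 of 45 members (28.9%), against 7.30% of the table genes and 8.13% of all genes. All 5 matched GBPs and all 3 matched immunity-related GTPases held an ISRE core, as did 4 of 5 IFIT and 4 of 6 OAS genes. None of the 3 matched antigen-processing genes held it. Of the factors, Irf2 and Stat2 held it. The stretches below give the 110 bases that end just before the start, 5′ to 3′ on the gene's strand, with ISRE core and GAS matches in capitals. They lie at chr11:58199446-58199555 (plus strand) for Igtp, chr11:58214867-58214976 (plus) for Irgm2, chr3:142530226-142530335 (plus) for Gbp7, chr4:156200819-156200928 (minus) for Isg15 and chr5:120907526-120907635 (minus) for Oas1a.
Igtp: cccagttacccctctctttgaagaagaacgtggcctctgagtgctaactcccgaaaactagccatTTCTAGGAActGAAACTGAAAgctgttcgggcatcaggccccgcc
Irgm2: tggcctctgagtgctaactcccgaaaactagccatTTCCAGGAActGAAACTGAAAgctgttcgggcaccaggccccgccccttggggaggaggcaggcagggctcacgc
Gbp7: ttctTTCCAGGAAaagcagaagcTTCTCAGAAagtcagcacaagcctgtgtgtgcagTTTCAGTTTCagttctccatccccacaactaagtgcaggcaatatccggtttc
Isg15: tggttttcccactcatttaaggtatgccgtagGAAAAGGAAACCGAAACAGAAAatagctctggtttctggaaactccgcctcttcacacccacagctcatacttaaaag
Oas1a: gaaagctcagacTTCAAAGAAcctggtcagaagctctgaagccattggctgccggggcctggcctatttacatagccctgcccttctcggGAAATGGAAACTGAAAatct
Igtp and Irgm2 carry a GAS directly before an ISRE core, while Isg15 and Oas1a carry overlapping ISRE cores. In Gbp7 the ISRE core is on the other strand. A match describes letters in this window and no binding was measured. Promoters were not matched for Gbp4, Gbp6, Gbp8, Gbp9, Gbp10, Gbp11, Ifi204, Ifi27, Ifi27l2a, Iigp1, Mx1, Mx2, Oas1b, Oas2, Tap2 and Zbp1, among others.

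Many members are neighbours in the genome (GENCODE vM21, GRCm38). Gbp5, Gbp7, Gbp3, Gbp2b and Gbp2 lie at chr3:142493978-142638008, and 6 further Gbp genes at chr5:105014150-105346472. The 5 Ifit genes lie at chr19:34550694-34650009. Psmb9, Tap1, Psmb8 and Tap2 lie within chr17:34181987-34216321, and Ifi204, Ifi203, Ifi202b and Ifi205 within chr1:173747293-174031810. The Gbp, Ifit and Ifi clusters hold copies of multigene families, and exons of Igtp and Irgm2, of Gbp4, Gbp8 and Gbp9, and of Psmb9 and Tap1 overlap, so reads may be split between them and their single values are uncertain. Gbp6 and Gbp10 both overlap exons of 1 further annotated gene. Exons of Irf7, Irf3, Irf5 and Isg20l2 overlap those of another table gene on the opposite strand, and those of Irf9 and Ifi203 of one on the same strand. The strand setting of the counting is not given in the sources used here.

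FPKM is per length, so levels are set between genes here, as a rough order only. Some genes differed widely between libraries of a group, such as Actb, at 2016 and 96.9 FPKM in K107R vehicle eWAT. Ifi27l2a, a small mitochondrial protein gene, was highest, with 1357 to 8820 FPKM and a median of 3158. The next were Ifi27, at 107.3 to 377 FPKM, and Ifi30, the lysosomal thiol reductase of antigen processing, at 63.0 to 295 FPKM. After these the highest means belonged to Psmb8 (50.5 to 99.7 FPKM), Tap2 (37.6 to 74.4 FPKM), Gbp2 (27.0 to 73.6 FPKM) and Irf1 (28.4 to 59.5 FPKM). At the low end, 13 members fell below 1 FPKM in at least 1 library, among them Gbp10, Ifi44 with 3 libraries at 1 FPKM or more, and Oas1g and Oas3 with 4 each. The other 49 members had 1 FPKM or more in all 16 libraries.

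Depth cannot be read from FPKM, and no counts were used. The values summed to 411746 to 596519 per library. Number 2 libraries had lower medians over all genes than number 1 libraries in all 8 groups. The difference between the numbers varied by gene and ran both ways. Irf2bp2, Irf9 and Irf2 were lower in number 2 in 7, 8 and 8 groups. Ifi27l2a, Ifi35, Isg15, Isg20, Oas1c, Oasl1, Psmb8, Psmb9, Tap1 and Tap2 were higher in number 2 in all 8 groups. Irf9, the DNA-binding partner of STAT2, was at 14.1 to 20.1 FPKM in the number 1 libraries and at 2.11 to 11.9 FPKM in the number 2 libraries. The fat cell gene Adipoq was at 1068 to 3320 FPKM in every library, whereas Fabp4 was listed at 0 in 10 libraries, the K107R rosiglitazone eWAT pair and all of iWAT. The K107R vehicle eWAT libraries summed to 4024 and 3705 FPKM over 7 epididymis markers, against at most 6.91 FPKM in every other library. The part of this difference in the results below that use these 2 libraries was not tested. Changes are differences of group means on the log2(FPKM + 1) scale, which understates changes of low genes. They were tested with limma over all 13669 genes with at least 1 FPKM in 2 libraries, and a gene was called at a Benjamini-Hochberg adjusted p under 0.05. Because the numbers pair the libraries, the count with the number as a block is given where it differs by more than 1.5 times.

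In eWAT of vehicle-treated mice, the GTPase genes Igtp, Gbp2, Ifi47 and Gbp10 were lower in K107R than in WT. They were the members that passed the test, 4 lower and 0 higher of 62 members, against 0.461% lower and 2.89% higher among all genes tested. With the block, 31 members were lower and 2 higher, against 3.53% and 4.77% of all genes. The median change of the members was -0.55, beside -0.13 for all genes tested. For 43 members both K107R libraries lay below both WT libraries, which held for 18.2% of all genes. After rescaling each library by its median ratio the all-gene median was 0.01 and that of the members -0.39, with 15 members lower and 1 higher, against 0.958% and 3.33% of all genes.

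**Figure D1:**
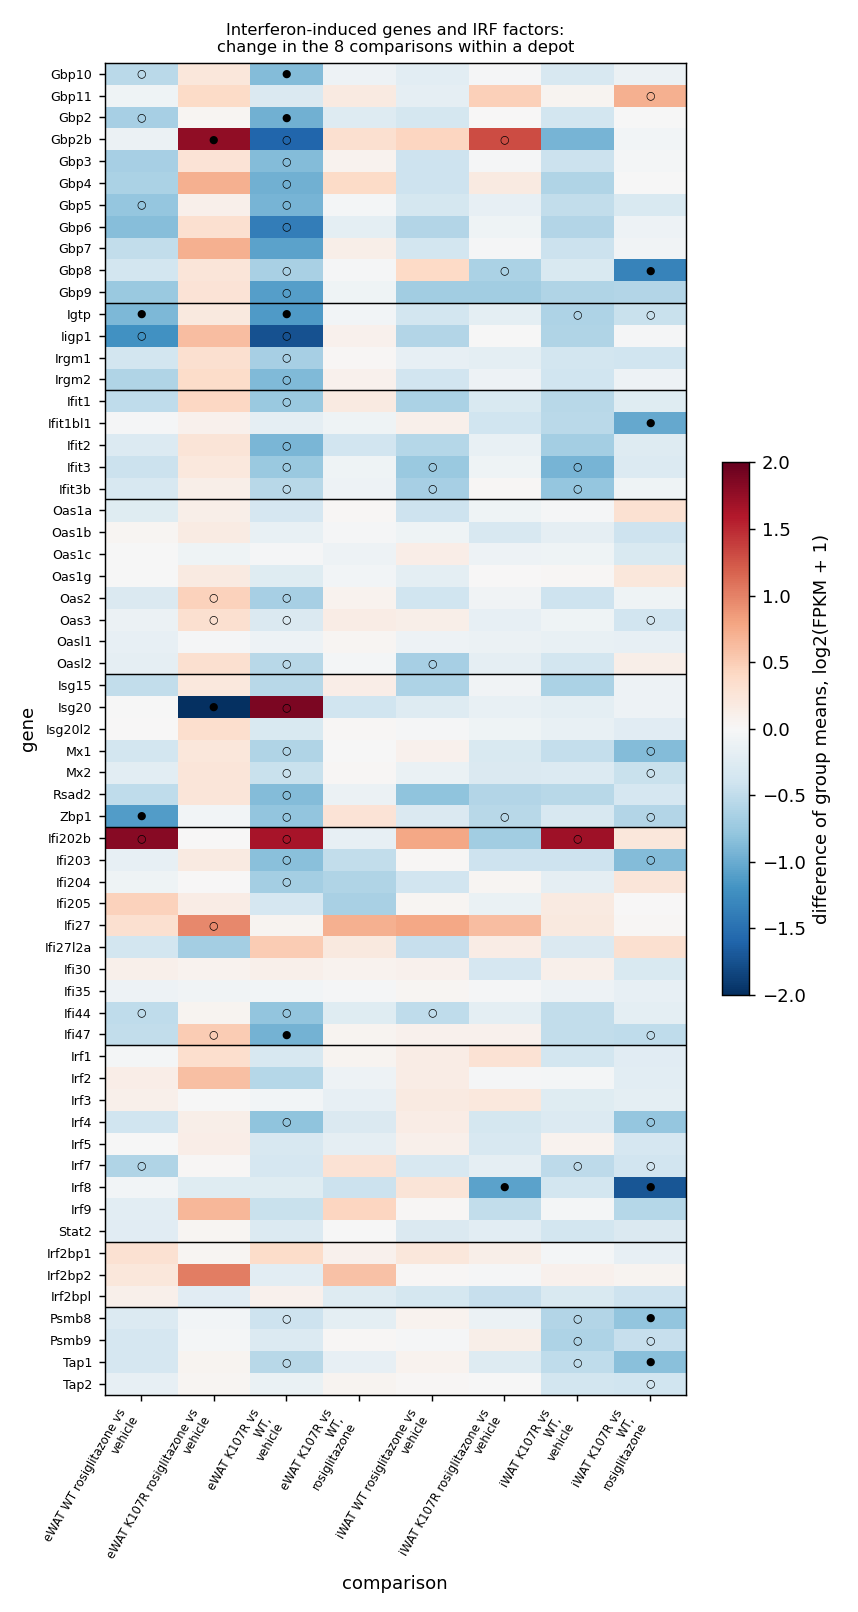
Colour gives the difference of group means on the log2(FPKM + 1) scale for 61 of the 62 members (rows, by role) in the 8 comparisons within a depot (columns). Filled circles mark an adjusted p under 0.05, open circles an adjusted p under 0.05 with the replicate block alone. The third column, K107R against WT with vehicle in eWAT, is blue for 54 of the 61, while the fourth, the same genotypes with rosiglitazone, holds no circle.

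Of the immunity-related GTPases, Igtp (also called Irgm3, at chr11:58199556-58207591) was at 15.5 and 18.1 FPKM in WT and at 6.40 and 7.85 FPKM in K107R. Both K107R libraries were below both WT libraries, by 1.13 on average (SE 0.15, adjusted p = 0.0013). Iigp1, which loads onto the vacuoles of intracellular parasites, was at 23.02 and 17.8 FPKM in WT and at 6.66 and 4.22 FPKM in K107R. Its difference was larger, -1.75 (SE 0.44), but more variable between libraries, and it was called with the block (adjusted p = 0.00039) and not without it (adjusted p = 0.0707). Irgm1 and Irgm2, which regulate the other GTPases, also had no overlap between genotypes. With the block all 4 genes of the group were lower.

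All 11 GBP genes had both K107R libraries below both WT libraries, with changes from -1.58 to -0.29 and a median of -0.96. Gbp2, the most abundant GBP, was at 54.5 and 67.3 FPKM in WT and at 27.0 and 34.8 FPKM in K107R. It fell by 0.96 (SE 0.19, adjusted p = 0.0200). Gbp10 was at 1.07 and 1.10 FPKM in WT and at 0.134 and 0.1496 FPKM in K107R, a change of -0.87 (SE 0.12, adjusted p = 0.0017). As it met the minimum only through this WT group, its call is no support for the other 3. Neither gene overlapped between genotypes. Gbp2b (also called Gbp1) was at 2.52 and 1.89 FPKM in WT and at 0.0909 and 0.0392 FPKM in K107R (adjusted p = 0.0736). The group thus had 2 calls without the block and 9 with it.

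Ifi47, a further interferon-gamma-induced GTPase gene, was at 10.0 and 9.41 FPKM in WT and at 5.41 and 3.80 FPKM in K107R, and fell by 0.95 (SE 0.21, adjusted p = 0.0332). Its call was lost in 3 of the 4 fits that left out 1 library of these groups, where the adjusted p reached 0.285 without K107R vehicle library 2. The call of Gbp2 was lost without WT vehicle library 2 (adjusted p = 0.221) and without K107R vehicle library 1 (adjusted p = 0.170). Igtp and Gbp10 were called in all 4 of these fits, but after rescaling Igtp (log2 change -0.97, adjusted p = 0.309) and Gbp2 (-0.78, 0.596) were not called, while Gbp10 and Ifi47 were. With the eWAT libraries alone Gbp2 (adjusted p = 0.0793) and Ifi47 (0.0598) were not called.

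The antiviral families had no call without the block in this comparison. Among the IFIT genes, whose products bind foreign RNA, the median change was -0.74, and Ifit1, Ifit2, Ifit3 and Ifit3b were lower with the block. Ifit3, the most abundant, was at 9.18 and 8.54 FPKM in WT and at 5.59 and 4.29 FPKM in K107R. OAS genes, some of which make the activator of RNase L, had a median of -0.26, with Oas2, Oas3 and Oasl2 lower with the block. Of the other effectors, Zbp1 (a sensor of Z-form nucleic acid), Mx1, Mx2 and Rsad2 (viperin) were lower with the block. Isg15, a ubiquitin-like modifier, was at 10.9 and 13.9 FPKM in WT and at 7.28 and 8.91 FPKM in K107R, and it passed neither test.

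No transcription factor was called without the block. The 10 IRF and STAT genes had a median of -0.33, and of these Irf4 was called with the block. Irf7, the factor that amplifies type I interferon, was at 17.4 and 20.7 FPKM in WT and at 14.1 and 15.5 FPKM in K107R. It had no overlap between genotypes, and passed the test neither with nor without the block. The 3 IRF2-binding proteins had changes from -0.21 to 0.36.

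Isg20, an exonuclease gene, and Ifi202b, a cytosolic DNA-binding protein gene, went the other way. Isg20 was at 43.7 and 81.8 FPKM in K107R vehicle and at 10.3 to 20.6 FPKM in the other 6 eWAT libraries. Its difference of 1.89 was called with the block (adjusted p = 1.2e-05) and not without it (adjusted p = 0.0782), and the same 2 libraries are those with epididymis markers. Ifi202b was at 2.84 and 1.60 FPKM in K107R, whereas 1 WT library had 0.0118 FPKM and the other was listed at 0, so no fold is given (adjusted p = 0.0702, with the block 0.0027).

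Markers of lymphocytes moved with this comparison. Over 14 T and NK cell markers the WT vehicle libraries summed to 32.1 and 26.9 FPKM and the K107R vehicle libraries to 12.6 and 9.97 FPKM. Of the 13 tested, 5 were lower, among them Cd4 by 0.81 and Nkg7 by 1.34. Over 8 B and plasma cell markers the sums were 65.1 and 45.2 FPKM against 21.2 and 13.03 FPKM, with 3 of 8 lower. The 7 dendritic cell markers had 0 calls, with sums of 22.5 and 24.97 against 20.3 and 22.99 FPKM. The 10 macrophage markers had 0 calls, with sums of 4134 and 5035 against 3890 and 4147 FPKM. No T, NK, B or macrophage marker was listed at 0 in any library. The part of these markers in the differences of the members was not tested. In bulk tissue, fewer cells of a type and less RNA per cell cannot be told apart.

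**Figure D2:**
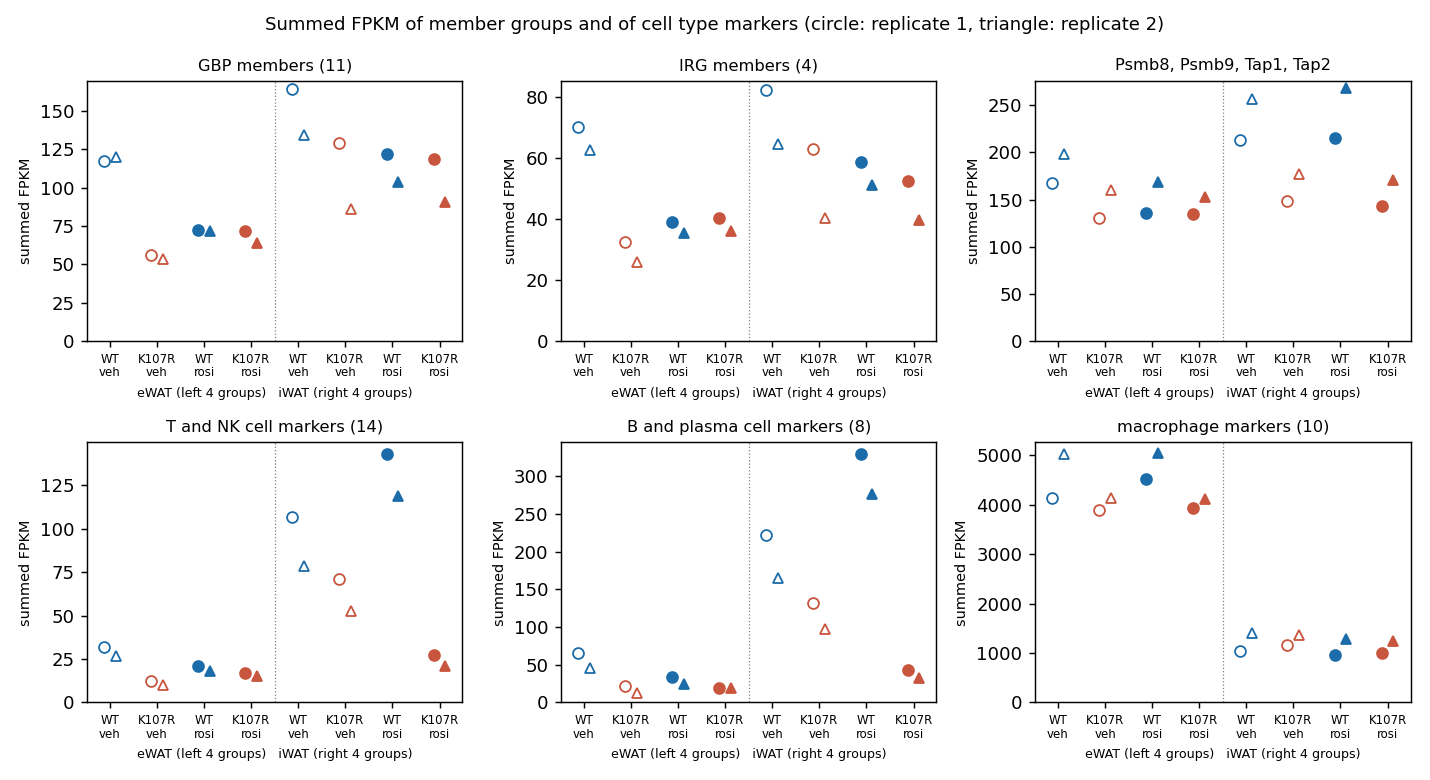
Each panel gives the summed FPKM (vertical axis) in every library of the 8 groups (horizontal axis; circle for replicate 1, triangle for replicate 2, blue for WT, red for K107R, filled for rosiglitazone). In eWAT the GBP sum is highest in WT vehicle (117 and 120 FPKM) and at 53.8 to 72.4 FPKM in the other 6 libraries, and in iWAT the B and plasma cell sum is lowest in K107R rosiglitazone (42.7 and 32.9 FPKM).

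The same eWAT WT vehicle libraries serve as control for rosiglitazone in WT, so this comparison is not independent of the one above. Igtp and Zbp1 fell with rosiglitazone in WT eWAT, 2 of 62 members, against 0.278% lower among all genes, and 0 members rose, against 0.168%. With the block 8 members were lower and 1 was higher, against 1.45% and 1.02%, and after rescaling 3 were lower and 1 higher, against 0.417% and 0.307%. Zbp1 was at 12.9 and 14.9 FPKM with vehicle and at 5.17 and 6.57 FPKM with rosiglitazone. It fell by 1.12 (SE 0.19, adjusted p = 0.0446) with no overlap. Igtp went from 15.5 and 18.1 FPKM to 8.12 and 9.02 FPKM, and fell by 0.89 (SE 0.15, adjusted p = 0.0471). Both calls were lost in each of the 4 fits without 1 library of these groups (adjusted p from 0.214 to 0.423 for Zbp1 and from 0.264 to 0.448 for Igtp), in the eWAT libraries alone and after rescaling.

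With the block, Iigp1, Gbp2, Gbp5, Gbp10, Irf7 and Ifi44 were also lower, and Ifi202b higher. Gbp10 and Ifi44 met the minimum only through WT vehicle libraries, so their calls are no support for the others. Iigp1 was at 9.19 and 7.21 FPKM with rosiglitazone, below both vehicle libraries (adjusted p with the block 0.0140). Irf7 was at 11.4 and 13.02 FPKM with rosiglitazone, also below both (log2 change -0.60, adjusted p with the block 0.0149). All 11 GBP genes and all 4 immunity-related GTPases had estimates under 0, with medians of -0.63 and -0.75, beside 0.03 for all genes. The T and NK marker sum was 20.8 and 18.4 FPKM with rosiglitazone, and the B and plasma cell sum 33.2 and 24.7 FPKM, both below the WT vehicle libraries; their part was not tested.

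**Figure D3:**
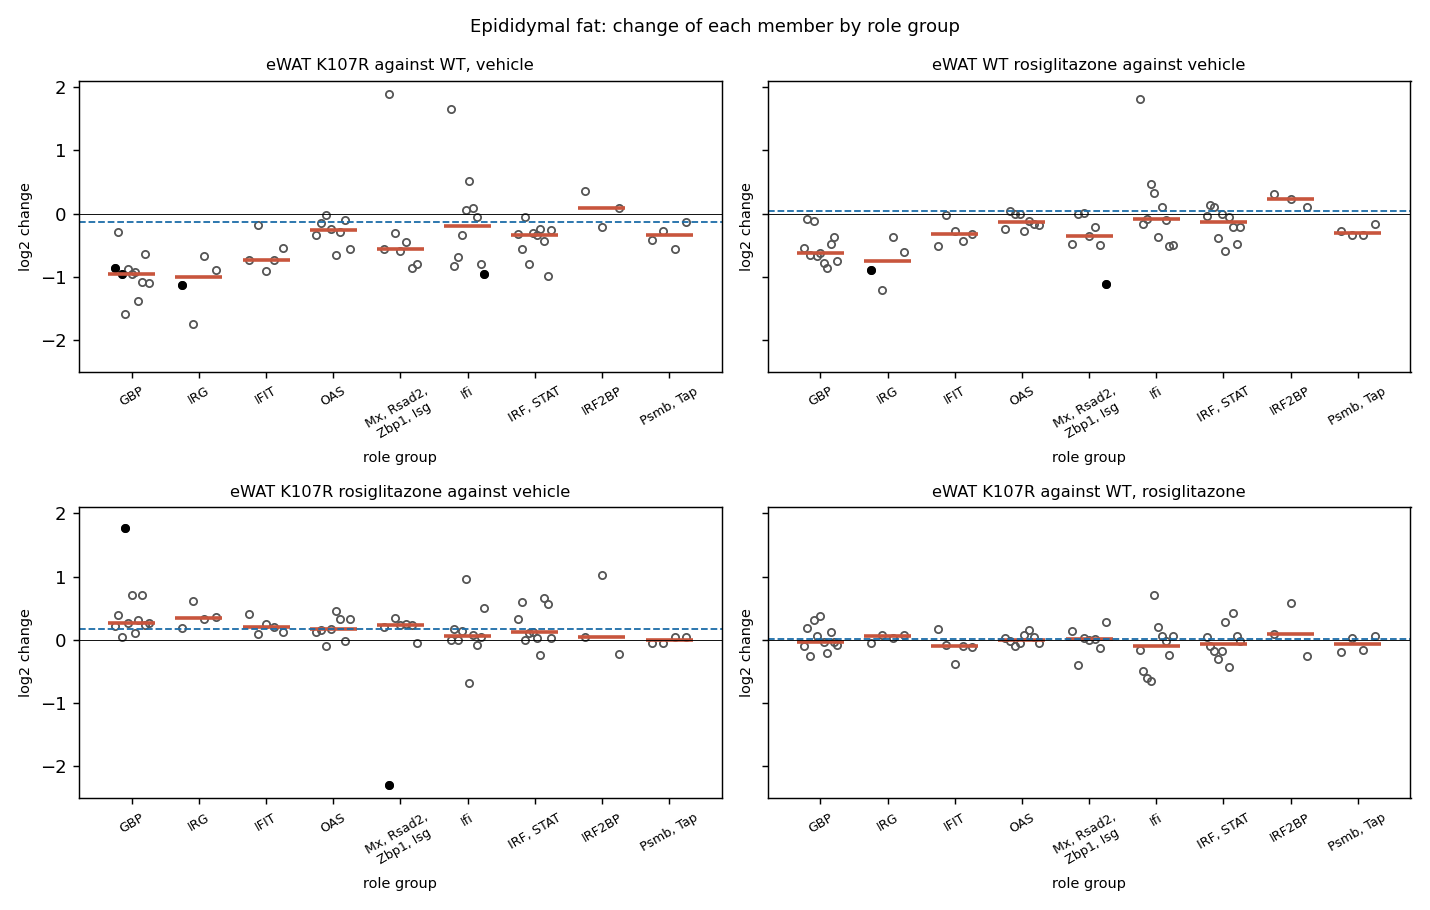
Points give the log2 change of each member in 4 eWAT comparisons (panels), by role group (horizontal axis), filled where the adjusted p is under 0.05. The red bar is the median of the group and the dashed line the median of all genes tested. GBP and immunity-related GTPase (IRG) medians are -0.96 and -1.01 in K107R against WT with vehicle, and -0.03 and 0.05 in the same genotypes with rosiglitazone.

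In K107R eWAT, 1 member rose with rosiglitazone and 1 fell, against 1.29% and 3.61% of all genes; with the block 5 rose and 1 fell, against 5.05% and 5.88%. Gbp2b rose from 0.0909 and 0.0392 FPKM to 2.81 and 2.48 FPKM, by 1.77 (SE 0.40, adjusted p = 0.0298). Isg20 fell from 43.7 and 81.8 FPKM to 10.3 and 12.6 FPKM, by 2.30 (SE 0.48, adjusted p = 0.0204), and its 2 vehicle libraries are those with 4024 and 3705 FPKM of epididymis markers. After rescaling 2 members were called higher and 0 lower, against 1.19% and 4.21% of all genes. Gbp2b was not called in any of the 4 fits without 1 library (adjusted p up to 0.193), and Isg20 not without K107R vehicle library 2 (0.198), K107R rosiglitazone library 1 (0.158) or library 2 (0.0932).

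The median of the members was 0.18, beside 0.17 for all genes. After rescaling these medians were 0.02 and -0.0021. Igtp was at 6.40 and 7.85 FPKM with vehicle and at 8.35 and 8.11 FPKM with rosiglitazone, so its libraries did not overlap (log2 change 0.19, and -0.01 after rescaling). Ifi27 was at 211 and 107.3 FPKM with vehicle and at 260 and 334 FPKM with rosiglitazone, and was higher with the block alone (adjusted p = 0.0454). Oas2, Oas3 and Ifi47 were likewise higher with the block.

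With rosiglitazone in eWAT, no member was called between genotypes. None of the 62 passed limma's test in either direction, against 0.556% higher and 0.351% lower of all genes; none did so with the block (1.91% and 1.56%), and 1 had an unadjusted p under 0.05 (6.34% of all genes). That member was Ifi204, a DNA sensor of the Ifi20x family, at 30.7 and 30.4 FPKM in WT and at 21.9 and 18.02 FPKM in K107R (log2 change -0.60, SE 0.26, adjusted p = 0.754). Irf8, a factor of macrophages, dendritic cells and B cells, was at 33.6 and 32.7 FPKM in WT and at 22.3 and 26.3 FPKM in K107R (adjusted p = 0.909). Both had lower values in both K107R libraries. The median of the members was -0.02, beside 0.01 for all genes.

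The drug response itself was tested between genotypes in eWAT. Igtp, with log2 changes of -0.89 in WT and 0.19 in K107R, had a difference between the responses of 1.08 (SE 0.22, adjusted p = 0.0259). It was the 1 member called, against 0.234% called in that direction among all genes, and 0 were called in the other (2.30%). With the block 11 members were called in the direction of Igtp and 2 in the other, against 0.863% and 3.34%. After rescaling the counts were 3 and 1, against 0.337% and 2.50%, and Igtp was not among them (adjusted p = 0.997). Rescaling moved the median over all genes from 0.15 to -0.02 and over the members from 0.49 to 0.37. Iigp1 (1.83), Irgm2 (0.97), Gbp2b (1.90), Gbp3 (0.94), Gbp10 (0.77), Zbp1 (1.07), Ifi47 (1.01), Irf7 (0.63), Oas2 (0.74) and Oas3 (0.44) joined Igtp with the block. Of these, Gbp10 met the minimum only through WT vehicle, which enters this difference. Leaving out 1 eWAT library ended the call of Igtp in 7 of 8 fits, with differences from 0.95 to 1.19 and adjusted p up to 0.153, and it remained called without K107R vehicle library 2.

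**Figure D4:**
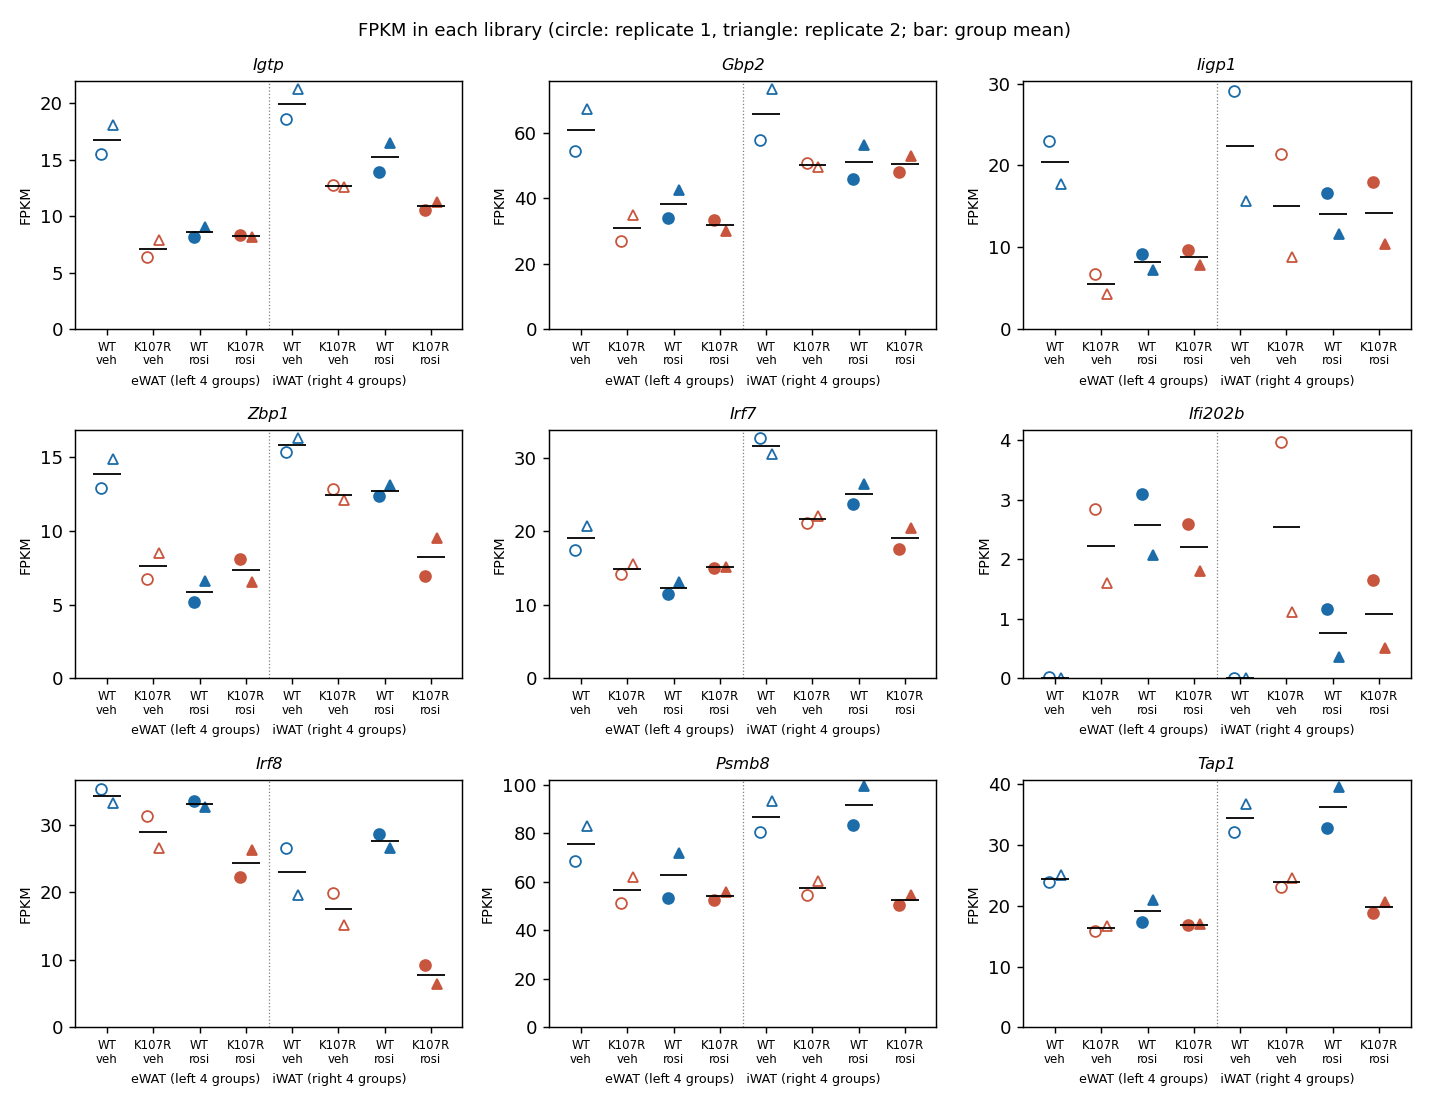
FPKM (vertical axis, from 0) of 9 members in each library of the 8 groups (horizontal axis; circle for replicate 1, triangle for replicate 2, bar for the group mean, blue for WT, red for K107R). Within eWAT, Igtp, Gbp2 and Iigp1 are highest in the WT vehicle libraries, Irf8 is lowest in K107R rosiglitazone of iWAT (9.30 and 6.37 FPKM), and Ifi202b is at or near 0 in WT vehicle of both depots.

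Across the 4 eWAT groups, the mean of 44 of 62 members was highest in WT vehicle, which held for 23.9% of all genes. For 39 members this was so within number 1 and within number 2 alike (13.5% of all genes). Gbp10 and Ifi44, which met the minimum only through WT vehicle libraries, are among the 44. The mean of 45 members was lowest in K107R vehicle, where 53% of all genes were also lowest. In iWAT the mean of 34 members was highest in WT vehicle (28.1% of all genes) and that of 42 members was lowest in K107R rosiglitazone (31.8% of all genes).

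In vehicle-treated iWAT no member passed limma's test between genotypes, against 0.410% of all genes higher and 0.168% lower, while 13 members (21.0%) had an unadjusted p under 0.05, against 4.89% of all genes. With the block 7 members were lower and 1 higher, against 1.13% and 0.988%. After rescaling 1 was lower and 1 higher, against 0.293% and 0.622%. The 7 were Ifit3, Ifit3b, Igtp, Psmb8, Psmb9, Tap1 and Irf7. Ifit3b was at 4.55 and 4.53 FPKM in WT and at 2.68 and 1.84 FPKM in K107R, a change of -0.78 (SE 0.15, adjusted p = 0.0664). The immunoproteasome subunit Psmb8 was at 80.4 and 93.2 FPKM in WT and at 54.4 and 60.5 FPKM in K107R. All 4 antigen-processing genes had no overlap between genotypes here, as had 20 of the 62 members in the lower direction, against 10.4% of all genes. Ifi202b, the member that was higher with the block, was listed at 0 in both WT libraries and was at 3.97 and 1.11 FPKM in K107R (adjusted p = 0.193, with the block 0.0100).

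Ifi202b was near 0 in WT vehicle of both depots. With rosiglitazone it was at 1.16 and 0.357 FPKM in WT iWAT and at 1.65 and 0.512 FPKM in K107R iWAT. In eWAT the values with rosiglitazone were 3.09 and 2.07 FPKM in WT and 2.59 and 1.81 FPKM in K107R. It was therefore at most 0.0118 FPKM in the WT vehicle libraries and at least 0.357 FPKM in the others. As background, Ifi202b is known to differ in expression between inbred mouse strains, and the labels give no strain for any group. The part of strain was not tested, for this gene or for any comparison between the groups. Among these are all comparisons and counts above that rest on WT vehicle.

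Under rosiglitazone, iWAT of K107R mice had lower Irf8, Gbp8, Ifit1bl1, Tap1 and Psmb8 than iWAT of WT mice. These 5 members fell and 0 rose, against 3.14% lower and 0.995% higher among all genes. With the block 16 were lower and 1 higher, against 6.45% and 2.92%, and after rescaling 4 were lower and 1 higher, against 3.31% and 1.57%. Irf8 was at 28.6 and 26.6 FPKM in WT and at 9.30 and 6.37 FPKM in K107R, and fell by 1.71 (SE 0.21, adjusted p = 0.00084). It was called in every fit without 1 library and after rescaling. Gbp8 was at 4.28 and 2.89 FPKM in WT and at 1.14 and 0.512 FPKM in K107R, a change of -1.33 (SE 0.27, adjusted p = 0.0211).

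Tap1, which pumps peptides into the endoplasmic reticulum, was at 32.8 and 39.5 FPKM in WT and at 18.8 and 20.7 FPKM in K107R (log2 change -0.84, SE 0.14, adjusted p = 0.0072). Psmb8 was at 83.6 and 99.7 FPKM in WT and at 50.5 and 54.8 FPKM in K107R (log2 change -0.78, SE 0.18, adjusted p = 0.0375). Both had no overlap between genotypes, and Psmb9 and Tap2 joined them with the block, so all 4 antigen-processing genes were lower with it. Ifit1bl1 was at 2.63 and 1.70 FPKM in WT and at 0.800 and 0.323 FPKM in K107R (adjusted p = 0.0458). The calls of Psmb8 and Ifit1bl1 were lost in each of the 4 fits without 1 library (adjusted p up to 0.289 and 0.361). Gbp8 was not called without WT rosiglitazone library 1 (0.194) or K107R rosiglitazone library 2 (0.192), and Tap1 not without WT rosiglitazone library 2 (0.0828) or K107R rosiglitazone library 1 (0.0705). Rescaling ended the calls of Tap1 (adjusted p = 0.541) and Psmb8 (0.723), and with the iWAT libraries alone 0 members were called.

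Among the 11 GBP genes, Gbp8 was the 1 called without the block. The others ranged from Gbp9 (-0.59), at 12.2 and 6.80 FPKM in WT and 8.15 and 3.93 FPKM in K107R, to Gbp11 (0.71), at 1.21 and 0.849 FPKM in WT and 2.96 and 1.77 FPKM in K107R. Gbp11 was higher with the block (adjusted p = 0.0081) and not without it (0.102). The GBP median was -0.08, beside -0.01 for all genes. Gbp2 was at 45.9 and 56.4 FPKM in WT and at 47.9 and 53.0 FPKM in K107R, with overlap.

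Lymphocyte markers were lower in the same K107R libraries. Over the T and NK cell markers the WT rosiglitazone libraries of iWAT summed to 143 and 119 FPKM and the K107R rosiglitazone libraries to 27.6 and 21.3 FPKM, with 8 of 13 lower and 0 higher. The B and plasma cell sums were 329 and 277 FPKM against 42.7 and 32.9 FPKM, with 7 of 8 lower and Cd79b lower by 3.06. Over 7 dendritic cell markers they were 42.9 and 40.5 FPKM against 24.1 and 26.8 FPKM, with 3 of 7 lower (Flt3 by 1.36, Ccr7 by 2.28 and Siglech by 0.90). Irf8, Gbp8, Ifit1bl1, Tap1 and Psmb8 thus moved with these markers, whose part was not tested. The macrophage markers had 0 of 10 called, with sums of 964 and 1291 FPKM in WT and 1006 and 1236 FPKM in K107R.

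In iWAT, Irf8 was called lower with rosiglitazone than with vehicle in K107R, and no member was called in WT. No member's response was called different between genotypes without the block. In WT no member passed limma's test, against 0.900% of all genes higher and 0.775% lower, and 5 (8.06%) had an unadjusted p under 0.05, against 8.76% of all genes. With the block Ifit3, Ifit3b, Oasl2 and Ifi44 were lower and 0 higher, against 2.96% and 4.02%. Of these, Ifi44 met the minimum only through WT vehicle libraries, so its call is no support for the others. After rescaling 2 were lower and 0 higher, against 1.31% and 0.995%. Ifit3b went from 4.55 and 4.53 FPKM to 2.70 and 2.30 FPKM (log2 change -0.67, SE 0.15, adjusted p = 0.0674). Oasl2 went from 11.4 and 9.32 FPKM to 6.55 and 5.77 FPKM (log2 change -0.66, SE 0.22, adjusted p = 0.271). Both had lower values in both rosiglitazone libraries.

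In K107R iWAT, Irf8 fell with rosiglitazone, 1 of 62 members against 2.28% of all genes lower, and 0 rose (1.92%). It went from 19.9 and 15.1 FPKM to 9.30 and 6.37 FPKM, by 1.08 (SE 0.21, adjusted p = 0.0179). The call was lost without K107R vehicle library 1 (adjusted p = 0.120), without K107R rosiglitazone library 2 (0.147) and with the iWAT libraries alone. With the block Gbp8 and Zbp1 were also lower and Gbp2b higher, against 5.82% and 6.61% of all genes. After rescaling 2 members were higher and 2 lower, against 2.10% and 2.95%. Gbp2b was at 0.725 and 0.269 FPKM with vehicle and at 4.42 and 1.45 FPKM with rosiglitazone, so in both depots the K107R vehicle libraries had the lowest Gbp2b values. In the same comparison 5 of 13 T and NK cell markers, 3 of 8 B and plasma cell markers and 2 of 7 dendritic cell markers were lower. Their part was not tested.

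Between genotypes the iWAT drug response differed for no member by limma's test, against 0.0805% and 0.885% of all genes in the 2 directions, and 5 members (8.06%) had an unadjusted p under 0.05, against 4.24% of all genes. With the block Irf8 (-1.34) and Gbp8 (-1.03) were called, against 2.16% in that direction and 0.373% in the other. After rescaling 2 were called in that direction and 1 in the other, against 1.10% and 0.227%. No member passed the test of the depot difference of the K107R effect with vehicle, against 2.27% and 0.161% of all genes, with 3 (4.84%) at an unadjusted p under 0.05, against 5.11%. Isg20 alone was called there with the block (2.08, adjusted p = 0.00012), against 2.93% and 0.380%. The depot difference of the WT rosiglitazone effect also had 0 calls, against 0.0146% and 0.0219% of all genes, with the block too (0.198% and 0.322%), and 2 members (3.23%, against 2.76%) at an unadjusted p under 0.05, Zbp1 (-0.83) and Igtp (-0.52). The lower GBP values of K107R vehicle in eWAT were thus not shown to differ from those in iWAT.

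The depots differed in level for 30 members. Averaged over the 4 groups, 8 were higher in eWAT and 22 lower, against 19.9% and 12.5% of all genes. These counts include Oas1g, Ifit1bl1 and Gbp11, which met the minimum only through the depot where they were higher. With the block 15 were higher and 31 lower, against 34.8% and 21.0%. The all-gene median was 0.10, and -0.01 after rescaling, when 8 members were higher and 25 lower, against 19.7% and 20.0%.

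Irf5 and Ifi30 had the largest positive differences. Irf5, a factor of inflammatory macrophages, was at 43.6 to 61.5 FPKM (median 56.9) in 8 eWAT libraries and at 11.9 to 19.9 FPKM (median 15.1) in 8 iWAT libraries, a difference of 1.71 (SE 0.11, adjusted p = 8.0e-07). Ifi30 was at 232 to 295 FPKM (median 261) in eWAT and at 63.0 to 107.1 FPKM (median 82.8) in iWAT, a difference of 1.61 (SE 0.11, adjusted p = 1.8e-06). The libraries of the depots did not overlap for either gene. Oas1a (0.95), Irf8 (0.77), Ifi204 (0.71), Oasl1 (0.65), Oas1g (0.41) and Irf2bpl (1.05) were the other genes higher in eWAT. Oas1g met the minimum only through eWAT libraries, so its call is a description and no support for the others. The macrophage markers were higher in eWAT for 10 of 10, with sums of 3890 to 5057 FPKM there and 964 to 1413 FPKM in iWAT, and their part in these differences was not tested.

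Lower in eWAT were 7 of 11 GBP genes, 3 of 4 immunity-related GTPases, Ifi27l2a, Irf1, Irf7, Tap1 and Psmb9, among others. Ifi27l2a was at 1357 to 4229 FPKM (median 2426) in eWAT and at 2723 to 8820 FPKM (median 5109) in iWAT, a difference of -1.07 (SE 0.31, adjusted p = 0.0231). Gbp4 was at 2.75 to 9.22 FPKM (median 6.30) in eWAT and at 6.02 to 21.2 FPKM (median 12.8) in iWAT, a difference of -0.90 (SE 0.25). Irf7 was at 11.4 to 20.7 FPKM (median 15.1) in eWAT and at 17.6 to 32.7 FPKM (median 22.8) in iWAT, a difference of -0.63 (SE 0.07, adjusted p = 5.9e-05). Libraries overlapped between depots for each of the 3. The other called genes with the largest differences were Gbp9 (-0.86), Gbp8 (-0.75), Ifit1bl1 (-0.74), Iigp1 (-0.65), Gbp3 (-0.64), Gbp5 (-0.64) and Gbp11 (-0.60). Ifit1bl1 and Gbp11, which is among the 7 GBP genes, met the minimum only through iWAT libraries. Their calls are descriptions and no support for the others. Leaving out 1 library ended the call of Ifi27l2a in 8 of 16 fits (adjusted p up to 0.0594), of Iigp1 in 12 (up to 0.0975) and of Irf2bpl in 10 (up to 0.106). Without the K107R vehicle eWAT libraries, which hold the epididymis markers, 10 members were higher and 16 lower. The share of all genes in that fit is not given, so these counts describe the members only. Gbp4, Gbp9, Iigp1 and Irf2bpl were not called by limma in it (adjusted p = 0.0765, 0.0592, 0.256 and 0.0782). Of the lymphocyte markers, 10 of 13 for T and NK cells and 7 of 8 for B and plasma cells were lower in eWAT, as were 5 of 7 for dendritic cells (1 higher), and their part was not tested either.

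**Figure D5:**
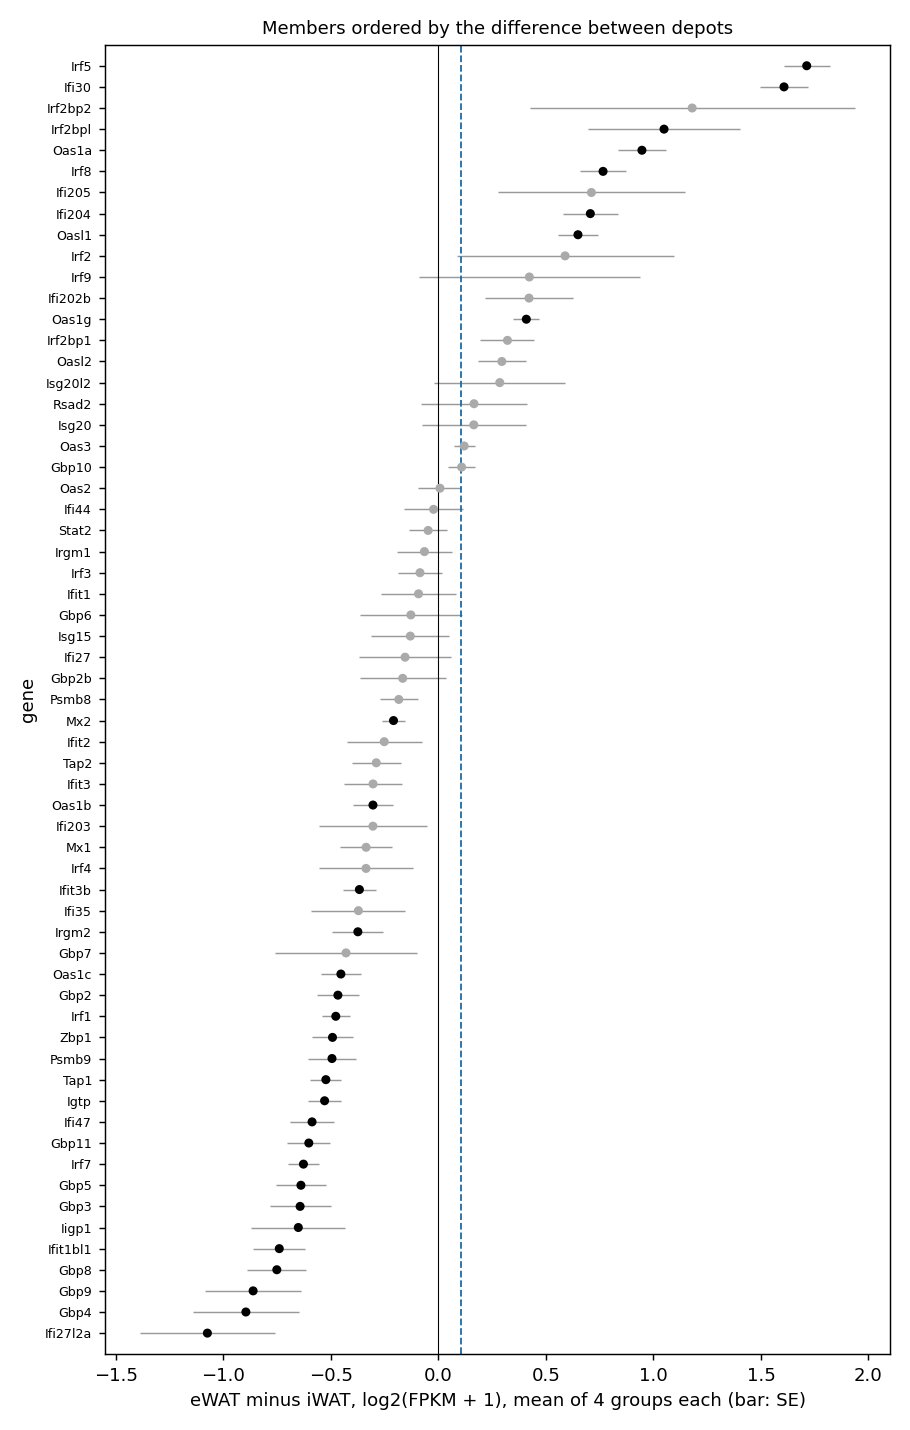
Difference between depots for 61 of the 62 members (vertical axis), as eWAT minus iWAT of log2(FPKM + 1) averaged over 4 groups each, with its SE as a bar; black points have an adjusted p under 0.05. The dashed line is the median of all genes, 0.10. Irf5 and Ifi30 are at the top, at 1.71 and 1.61, and most GBP genes are in the lower part of the plot.

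Genes around the members were read from lists. Of 14 interferon ligand and inducing cytokine genes, only Il12a, Il15 and Il18 were tested, and the interferon genes themselves were not analysed here. Il15, which supports NK cells, was at 2.71 to 6.45 FPKM and Il18 at 3.48 to 10.0 FPKM over all libraries. Of 9 genes tested from the receptor and JAK kinase list, 8 of them receptor chains or JAK kinases, 0 passed limma's test within a depot, with or without the block; none had an unadjusted p under 0.05 in these comparisons. Ifngr1, the ligand-binding chain of the interferon gamma receptor, was the receptor gene with the most RNA, at 79.1 to 230 FPKM.

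Of 32 other interferon-induced genes, 0 passed in eWAT K107R against WT with vehicle, against 0.461% lower and 2.89% higher among all genes. At an unadjusted p under 0.05 there were 9, against 8.77% of all genes. With the block 14 were lower, against 3.53%. Their median there was -0.55, and the all-gene median of this comparison is given above. Helz2, a helicase co-activator, was at 4.00 and 4.07 FPKM in K107R vehicle eWAT and at 7.01 and 6.69 FPKM in K107R rosiglitazone eWAT, and rose by 0.64 (SE 0.13, adjusted p = 0.0210). In WT eWAT it was at 6.08 and 5.87 FPKM with vehicle and at 4.56 and 4.30 FPKM with rosiglitazone, and its drug response differed between genotypes by 1.00 (adjusted p = 0.0181).

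The list of interferon gamma chemokines held 5 tested genes: Cxcl9, Cxcl10, Ccl5, the receptor gene Cxcr3 and the checkpoint ligand gene Cd274. In eWAT K107R against WT with vehicle 0 were called, and all but Cxcr3 were lower with the block, against 3.53% of all genes. Cxcl10, which draws T cells, was at 8.40 and 5.21 FPKM in WT vehicle, 2.28 and 1.04 FPKM in K107R vehicle, 2.14 and 1.34 FPKM in WT rosiglitazone and 2.61 and 2.23 FPKM in K107R rosiglitazone. Both WT vehicle libraries were above the other 6. The change in K107R vehicle was -1.56 (adjusted p = 0.0767, with the block 0.00011) and that with rosiglitazone in WT was -1.49 (adjusted p = 0.251, with the block 0.0015). In iWAT with rosiglitazone Ccl5, a chemokine of T and NK cells, was lower in K107R by 2.24 and Cxcr3, the receptor of Cxcl10, by 0.86. Tlr9 (-1.38), a sensor of DNA, Tmem173 (-0.94), the adaptor STING of the DNA sensing pathway, and the phosphatase gene Ptpn6 (-1.63) were lower there too.

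Members with an ISRE core in their promoter had a median change of -0.70 in K107R against WT with vehicle in eWAT (22 members), and the 23 matched members without it -0.30. For rosiglitazone in WT eWAT the medians were -0.35 and -0.10. They were -0.04 in both sets for K107R against WT with rosiglitazone in eWAT, and 0.20 and 0.05 for rosiglitazone in K107R eWAT. In iWAT they were -0.42 and -0.27 for K107R against WT with vehicle, and -0.23 and -0.26 with rosiglitazone. For rosiglitazone in iWAT they were -0.36 and 0.04 in WT, and -0.10 and -0.15 in K107R. The sets with and without an ISRE core also differ in gene family. The first 2 comparisons share the WT vehicle libraries, and these medians are descriptions with no test.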

How the data were processed

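The authors deposited 1 table of FPKM values, 1 column per library, used as deposited. Tools that the submitters' processing notes name are Cufflinks 2.2.1, TopHat2 2.0.12 and CASAVA 1.8.2, with the build mm10; annotation, strand setting and scaling between libraries are not given in the sources used here. Values became log2(FPKM + 1). The fit took the 13669 genes reaching 1 FPKM in 2 or more libraries, and was made with limma 3.58.1 (R 4.3.3), with 8 group means over all libraries, a mean-variance trend and Benjamini-Hochberg adjustment within each of 13 comparisons. The fit was tested on simulated data for K107R against WT with vehicle in eWAT, with libraries not paired by number. It called 22% of genes given a log2 change of 1 and 65% of those given a change of 2. The changed genes were drawn from those with a mean log2(FPKM + 1) above 2, so these shares do not cover lower genes. False calls were 3 and 6 of 13669 genes. A member that was not called is therefore not shown to be unchanged. Deviations of same-numbered libraries correlated above 0.1 in all 28 pairs of groups (lowest 0.12, median 0.57), so the numbers pair the libraries. What a number marks is not in the labels. The block takes 1 number effect for all groups. In K107R rosiglitazone eWAT, number 1 minus number 2 was -0.12 for Irf2bp2 (2.08 to 3.03 in the other groups) and -0.36 for Ifi27 (0.35 to 1.02). Block calls in comparisons that use this group carry that limit.

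The members and lists were chosen with earlier results of these data known. Genes named are, per comparison, up to 10 called members per direction by size, or the 2 with the smallest p where none was called; per role group, the most abundant member and those with the largest change in K107R against WT (vehicle) and WT rosiglitazone in eWAT; and up to 4 called genes of other lists. Others named were picked after their values were seen. Single values of 1 member and of 1 gene below the minimum are not reported here; the counts and medians include that member. Tried as alternatives were rescaling by median ratio, a pseudocount of 0.1, no filter, the depot's libraries alone, the replicate block, leaving out each library, and leaving out the K107R vehicle eWAT libraries. Promoters are from RefSeq (GRCm38.p6), positions from GENCODE vM21 (GRCm38). Figures used matplotlib 3.10.9.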

Additional observations from a re-analysis of the deposited data

Results flagged for a closer look

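The response of Igtp to rosiglitazone in eWAT differed between genotypes by the test of the difference itself: the K107R response minus the WT response was 1.08 on the log2(FPKM + 1) scale (SE 0.22, limma, adjusted p = 0.0259). With vehicle and then rosiglitazone, Igtp was at 15.5 and 18.1, then 8.12 and 9.02 FPKM in WT, and at 6.40 and 7.85, then 8.35 and 8.11 FPKM in K107R. With the replicate block the adjusted p was 0.0017, and after rescaling it was 0.997.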

How the results depend on the processing

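No gene named by the rule changed direction under an alternative in the comparison it was named for. Igtp with rosiglitazone in K107R eWAT, not called, went from 0.19 to -0.01 with rescaling. The counts of called members were moved as follows. A pseudocount of 0.1 gave 7 for K107R against WT with vehicle in eWAT, 3 for the eWAT difference of drug responses and 1 for K107R against WT with vehicle in iWAT. Without the filter that eWAT difference gave 2. Rescaling gave, in eWAT, 4 for WT rosiglitazone, 16 for K107R against WT with vehicle and 4 for the difference of responses, and in iWAT 2, 4, 2 and 3 for WT rosiglitazone, K107R rosiglitazone, K107R against WT with vehicle and the difference of responses. With the depot's libraries alone the counts were 0 for WT rosiglitazone and 2 for the difference of responses in eWAT, and 0 for K107R rosiglitazone and 0 for K107R against WT with rosiglitazone in iWAT; these fits have fewer libraries. The cause of the other shifts was not tested. Shares of all genes are not given for the pseudocount, the fit without the filter or the depot's libraries alone. Those counts describe the members only.

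With the replicate block, the pairing of the numbers, eWAT counts were 9 for WT rosiglitazone, 6 for K107R rosiglitazone, 33 for K107R against WT with vehicle and 13 for the difference of responses. In iWAT they were 4, 4, 8, 17 and 2 for WT rosiglitazone, K107R rosiglitazone, K107R against WT with vehicle, with rosiglitazone, and the difference of responses. Between depots they were 46, and 1 for the depot difference of the genotype effect; the block changed no other count. Block and rescaling together gave 15, 7, 33, 3 and 20 in eWAT. The order is WT rosiglitazone, K107R rosiglitazone, K107R against WT with vehicle, with rosiglitazone, difference of responses. In iWAT they gave 16, 12, 15, 13 and 7 in the same order. Between depots they gave 52, and 4 and 1 for the depot differences of the genotype and the WT rosiglitazone effect. No share of all genes is given for block and rescaling together, so these counts cannot be read against all genes.

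Leaving out 1 library gave 0 to 0 calls for WT rosiglitazone in eWAT, 0 to 1 for K107R rosiglitazone, 2 to 3 for K107R against WT with vehicle and 0 to 1 for the difference of responses. In iWAT it gave 0 to 1 for K107R rosiglitazone and 2 to 3 for K107R against WT with rosiglitazone; between depots it gave 25 to 30, and 0 to 0 elsewhere. Of the fits of single named genes without 1 library, 353 kept the side of the threshold and 71 lost the call. Shares of all genes are not given for the fits without 1 library, so their counts describe the members only. With 2 libraries a group and no read counts, the limits that depth sets are unknown.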
